A study of Mus musculus with 11 samples.

Results

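Aerocyte capillary endothelial cells of the aged mouse lung were described here in 11 single-cell libraries. A cell was taken as a member if it held at least 3 UMIs of Car4 and Ednrb together, at least 1 UMI of Cldn5 and Cdh5 together and no UMI of Ptprc. A UMI (unique molecular identifier) counts 1 captured RNA molecule, Cldn5 and Cdh5 mark endothelial cells, and Ptprc marks leukocytes. The rule found 1079 members among 69266 cells that held 1000 to 30000 UMIs and at most 14% mitochondrial UMIs. Because the members were chosen on Car4 and Ednrb, their levels of these genes, and all their differences from other capillary cells, are given as a description with no test.

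The cells came from dissociated whole lung read with droplet-based 3′ sequencing (10x Genomics), in a study of telomerase made in p21-positive cells and of capillary loss and emphysema. The WT group (1 library) was +/+ at p21, the gene Cdkn1a that encodes a cell-cycle inhibitor raised by DNA damage. The p21Het group (3 libraries) was +/-, the p21mTert group (5 libraries) +/mTert and the p21mTertCD group (2 libraries) +/mTertCD. All groups other than WT therefore carried 1 altered p21 allele, and the labels do not spell out what CD stands for. The mTert alleles are alleles of p21, so that any cell type that transcribes p21 can make the transgene. Ages were 18 months, except 19 months in p21Het_1 and 20 months in p21mTert_1 by their age labels. WT_1, p21Het_1 and p21mTert_1 were deposited earlier than the other 8 libraries. The labels do not say whether libraries came from separate animals, so the p-values below measure the spread between libraries, which may be technical. The members numbered 76 in WT, then 103, 159 and 29 in p21Het, 62, 172, 146, 145 and 70 in p21mTert, with 40 and 77 in p21mTertCD. Values listed for a group below follow replicate order.

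The alveolar capillary bed is built from a pair of endothelial cell types that lie side by side in one network. Aerocytes are large, thin, branched cells that face the air across the thin side of the alveolar wall and depend on VEGF-A from the epithelium, which they sense through Kdr. General capillary cells carry the lipase anchor Gpihbp1 and the apelin receptor Aplnr, and they divide to renew the network after injury. Car4 encodes a membrane-bound carbonic anhydrase that interconverts CO2 and bicarbonate. Ednrb encodes an endothelin receptor that clears endothelin from the blood, and Apln encodes apelin, the ligand of Aplnr. Fibin encodes a secreted protein.

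The promoters of the 4 genes that define the type are shown because these genes were high together in the same cells. Each line gives the 250 bases before the start of 1 RefSeq transcript (GRCm38.p6), 5′ to 3′ on the gene's strand, and capitals mark matches to the motifs searched on both strands.
Car4, chr11:84957504-84957753, plus strand: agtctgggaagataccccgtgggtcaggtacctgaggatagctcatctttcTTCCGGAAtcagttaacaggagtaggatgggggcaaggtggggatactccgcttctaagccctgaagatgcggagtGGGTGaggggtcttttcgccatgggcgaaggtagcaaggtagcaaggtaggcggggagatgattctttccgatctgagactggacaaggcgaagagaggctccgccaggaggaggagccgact
Ednrb, chr14:103843702-103843951, minus strand: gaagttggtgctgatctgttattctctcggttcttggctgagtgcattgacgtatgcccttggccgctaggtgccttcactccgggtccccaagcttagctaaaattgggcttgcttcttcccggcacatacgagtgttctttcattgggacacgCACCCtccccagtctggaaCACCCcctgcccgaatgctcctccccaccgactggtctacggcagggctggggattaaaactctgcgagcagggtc
Apln, chrX:48034854-48035103, minus strand: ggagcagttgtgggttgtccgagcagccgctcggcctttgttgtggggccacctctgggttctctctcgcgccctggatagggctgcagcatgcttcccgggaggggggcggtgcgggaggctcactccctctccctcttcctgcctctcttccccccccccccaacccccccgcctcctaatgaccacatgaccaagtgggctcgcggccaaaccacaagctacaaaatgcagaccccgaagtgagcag
Fibin, chr2:110362994-110363243, minus strand: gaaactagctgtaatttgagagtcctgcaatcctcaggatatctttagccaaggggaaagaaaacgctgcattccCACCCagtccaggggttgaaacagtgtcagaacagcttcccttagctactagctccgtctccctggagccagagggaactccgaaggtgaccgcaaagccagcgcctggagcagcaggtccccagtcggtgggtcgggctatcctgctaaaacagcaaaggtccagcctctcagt
The motifs searched were the T-box half-site GGTGTG, the ETS core TTCCGG and the KLF box CACCC. In Car4 the ETS core matched on both strands at overlapping bases, and the KLF box matched 1 time. The KLF box matched 2 times in Ednrb and 1 time in Fibin, and no motif matched in Apln. The T-box half-site, searched because the T-box genes Tbx2 and Tbx3 were high in these cells, matched in none of the 4 windows. Of 32851 promoters of the same length, 16.3% held the T-box half-site, 12% the ETS core and 52.0% the KLF box. GC content was 56.4% in Car4, 56.8% in Ednrb, 65.2% in Apln and 54.8% in Fibin, with a median of 52.4% over all promoters. A match is a description of letters and not of a bound site.

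The threshold of 3 UMIs lay where cells with Gpihbp1 were still frequent. Among endothelial cells by the same gate (7354 cells with Cldn5 or Cdh5 and no Ptprc), 370 held 2 UMIs of Car4 and Ednrb, 164 held 3, 94 held 4, 126 held 5 to 7, 166 held 8 to 14, 306 held 15 to 29 and 223 held 30 or more, in classes of unequal width. Apln and Fibin, which the rule did not use, were detected in fewer cells with 4 UMIs than with 3 and in more from 5 UMIs on. Fibin was detected in 3.24% of cells just outside the threshold with 2 UMIs, in 12.8% just inside with 3, in 11.7% with 4, in 41.3% with 5 to 7 and in 96.4% with 30 or more. Apln was detected in 2.43%, 8.54%, 4.26%, 19.0% and 75.8% of the same classes. Gpihbp1 ran the other way, with 3 or more UMIs in 71.4% of cells with 2 UMIs, 58.5% with 3, 66.0% with 4, 38.1% with 5 to 7 and 6.63% with 8 to 14. The median UMI count was 4130 at 2 UMIs, 4513.5 at 3, 4679 at 4, 3554.5 at 5 to 7, 3082 at 8 to 14, 4596 at 15 to 29 and 7378 at 30 or more. Depth was thus lowest in the class of 8 to 14 UMIs and highest in the last class.

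**Figure D1:**
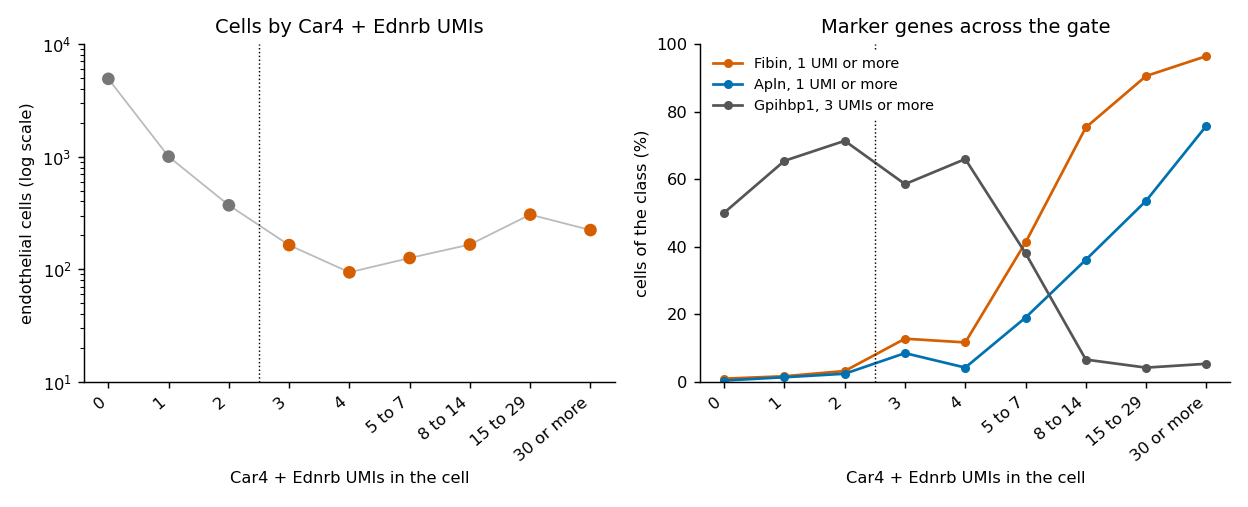
Endothelial cells by their Car4 plus Ednrb UMIs: the left panel counts cells in each class on a log axis and the right panel gives the share of each class with Fibin, Apln or 3 or more Gpihbp1 UMIs. The dotted line is the threshold. Gpihbp1 stays frequent up to 4 UMIs (66.0%) and is rare from 8 UMIs on (6.63%), where Fibin is frequent (75.3%).

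Some members went against the label by genes that the rule did not use. Members with 3 or more UMIs of Gpihbp1, the general capillary marker, made up 55.2% of p21Het_3 and 8.06% to 37.7% of the other libraries. By the rule's own genes, given as a description, 258 of the 1079 members (23.9%) held 3 or 4 Car4 and Ednrb UMIs and 695 (64.4%) held 8 or more, with 44.8% at 8 or more in p21Het_3. Both Car4 and Ednrb were present in 754 members (69.9%), Car4 alone in 269 (24.9%) and Ednrb alone in 56 (5.19%). Of the members with Car4 alone, 189 also held 3 or more Gpihbp1 UMIs. Of 7 markers of lymphatic endothelium, 1 was higher in members than in general capillary cells of every library. The median log2 difference over the 7 markers was 1.38. Their sum was 707 to 2973 CPM (UMIs per 1000000) in members and 1002 to 1989 in general capillary cells. It was lower in members than in general capillary cells in p21Het_1, p21mTert_2, p21mTert_4 and p21mTert_5, and higher in the other libraries. The share of members with 3 or 4 UMIs was 22.4% in WT, then 20.4%, 36.5% and 37.9% in p21Het, 19.4%, 20.3%, 21.9%, 14.5% and 24.3% in p21mTert, with 22.5% and 32.5% in p21mTertCD. The p21Het_2, p21Het_3 and p21mTertCD_2 members thus had the highest shares of cells near the threshold. Some genotype results are also given for the members with 8 or more UMIs, a limit chosen after the data were seen.

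Libraries held 42038434 to 85988955 UMIs in all, and members' sums held 207196 to 967678. Of 68645 barcode sequences in all libraries, 617 occurred in more than 1 library, and of 1078 among members, 1 did. Members' median mitochondrial share was 3.23% to 5.32% per library, and 46 members (4.26%) were marked as likely doublets and kept. At least 1 UMI of a gene of another lineage, haemoglobin included, was present in 15.8% to 100% of members per library. The p21Het_3 library stood apart in several results below, and its sum rests on 29 cells.

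Apln and Fibin were detected far more often in members than in other cells, also at matched depth. Apln was detected in 40.3% of members, 0.514% of general capillary cells and 0.122% of B cells, which lack it and serve as a guide to free RNA. Fibin was detected in 65.0% of members, 0.418% of general capillary cells and 0.271% of B cells. Median depths were 4728 UMIs in members, 3718 in general capillary cells and 4245 in B cells. After each cell was thinned to 1000 UMIs, Apln was detected in 15.5% of members and 0.161% of general capillary cells, and Fibin in 44.6% of members. Tbx2, a T-box transcription factor, was detected in 66.8% of members, 2.28% of general capillary cells and 0.593% of B cells. Among members with 8 or more UMIs, Apln was detected in 56.5%, Fibin in 88.8% and Tbx2 in 90.1%. General capillary cells (3111 cells) were those with 3 or more Gpihbp1 UMIs, at most 1 UMI of Car4 and Ednrb, a UMI of Cldn5 or Cdh5 and no Ptprc. B cells were those with 2 or more Cd79a UMIs and no UMI of Cldn5 or Cdh5. That gate drops B cells with such endothelial RNA, so their shares may understate free RNA of endothelial genes.

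Member counts were summed per library and are given as CPM, UMIs per 1000000 UMIs of that sum. In such sums, fewer cells with a gene and less RNA of it per cell cannot be told apart. Car4 stood at 2531 CPM in WT, then 2475, 1794 and 1231 in p21Het, 2312, 1986, 1736, 2325 and 2026 in p21mTert, with 1315 and 1681 in p21mTertCD. General capillary cells held 31.5 to 61.4 CPM of it. Ednrb stood at 1410 CPM in WT, then 1670, 813 and 560 in p21Het, 1426, 1142, 997, 1460 and 1297 in p21mTert, with 864 and 1153 in p21mTertCD, against 0.957 to 4.23 in general capillary cells. The p21Het_3 library was lowest for both genes. The replicated groups overlapped, except that Car4 was higher in every p21mTert library (1736 CPM or more) than in p21mTertCD (1681 or less). Of all genes tested, 6.97% were higher in p21mTert than in p21mTertCD without overlap. Apln stood at 192 CPM in WT, then 142, 133 and 101 in p21Het, 118, 238, 146, 294 and 159 in p21mTert, with 83.5 and 161 in p21mTertCD. Fibin stood at 966 CPM in WT, then 719, 668 and 135 in p21Het, 979, 796, 775, 962 and 786 in p21mTert, with 501 and 685 in p21mTertCD. The p21Het_3 library stood far below all others for Fibin, and also among members with 8 or more UMIs, where it held 293 CPM (from 13 cells) and the other libraries 706 to 1385. The p21Het_3 members with 8 or more UMIs also had the highest sums of lymphatic markers (4518 CPM, against 116 to 2226 in the other libraries) and of general capillary markers (3797 against 1127 to 2544), and the part of such cells in the Fibin level was not tested. By the GENCODE annotation of GRCm38, whose bounds span all transcripts of a gene, these genes lie at chromosome 11, 84957786 to 84966044, plus strand (Car4), chromosome 14, 103814625 to 103844402, minus strand (Ednrb), chromosome X, 48025146 to 48034853, minus strand (Apln), and chromosome 2, 110360917 to 110363183, minus strand (Fibin). The RefSeq and GENCODE starts differ, so that the Ednrb window printed above lies within the GENCODE gene and the Fibin window in part.

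Differences from general capillary cells of the same library were taken as log2 of CPM plus 10 and are given as the median over 11 libraries with the lowest and highest library. Ednrb was higher by 6.52 (5.41 to 7.07), Fibin by 6.12 (3.86 to 6.31), Car4 by 5.15 (4.85 to 5.49) and Apln by 3.92 (2.32 to 4.51). Of 9081 genes measured, 7.87% were higher and 6.05% lower in every library, and the median difference over them was 0.00. Of 23 measured genes of a wider aerocyte programme, 22 were higher in every library, with a median of 2.39. Such lists were drawn up with earlier results of these data known, so their direction is no independent evidence.

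Emp2, a tetraspan membrane protein, stood at 3499 ± 927 CPM (SD over 11 libraries) in members and 46.1 ± 28.3 in general capillary cells. Igfbp7, a secreted binding protein of insulin-like growth factors, stood at 3418 ± 916 and 117 ± 46.0 CPM. Tbx2 stood at 469 ± 175 and 7.07 ± 3.91 CPM, and its relative Tbx3 at 789 ± 148 and 206 ± 27.9. The sulfotransferase Chst1 was higher by 4.39, the scaffold protein Prx by 2.01 and the CD47 ligand Sirpa by 3.36. Sparc, a matrix glycoprotein placed on the list, went the other way and was lower in 10 of 11 libraries with a median of -1.09. The genes highest over general capillary cells also included Tmeff2 (3.87) and Rprml (3.52) of the list, and outside it Pcolce2, an enhancer of procollagen processing (4.34), the integrin subunit Itgb5 (3.85) and the matrix protein Egflam (3.76). Members with 3 or 4 Car4 and Ednrb UMIs held 370 CPM of Emp2 and 51.2 of Fibin, and those with 8 or more held 5079 and 1051.

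**Figure D2:**
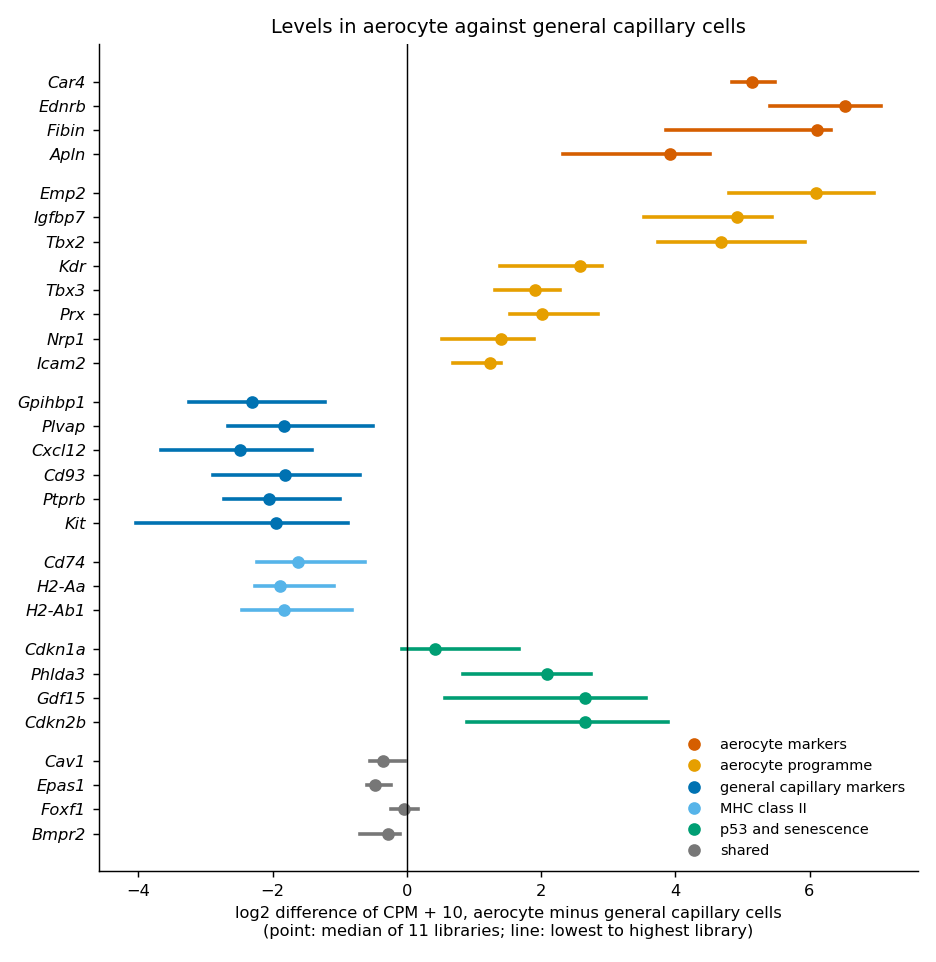
Difference of aerocyte from general capillary cells in log2 of CPM plus 10 for markers of both types and for genes of the pathways named, with the median over 11 libraries as a point and the lowest to highest library as a line. Ednrb and Fibin lie farthest to the right, at 6.52 and 6.12, and Cxcl12 and Gpihbp1 lie on the left at -2.48 and -2.31.

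Markers of general capillary cells were low in members and lowest among those farthest from the threshold. Of 16 measured, 14 were lower in every library, with a median of -1.83. Plvap, which forms the diaphragms of fenestrae and caveolae, stood at 309 ± 226 CPM in members, 86.6 in those with 8 or more UMIs, 739 in those with 3 or 4, and 1024 ± 180 in general capillary cells. Gpihbp1 stood at 376 ± 138, 92.4, 955 and 1631 ± 152 CPM in the same order, a gene that the gate for general capillary cells itself used. Kit, the stem cell factor receptor, had a median of -1.94, Cd93 of -1.82, lipoprotein lipase Lpl of -1.86 and Aplnr of -1.02, the last lower in 9 of 11 libraries. The lowest genes over all were the noradrenaline transporter Slc6a2 (-4.74), von Willebrand factor Vwf (-2.94), Tmem252 (-2.83) and the chemokine Cxcl12 (-2.48). Slc6a2 ranged from -5.53 to -0.24 over libraries. Slc6a2 and Vwf were also listed as venous markers and Cxcl12 as an arterial marker. Of 9 measured venous markers 6 were lower in every library, and of 10 arterial markers 5. General capillary cells held 1906 to 4788 CPM of summed venous and 2355 to 3550 of summed arterial markers. The part of venous and arterial cells in these differences was not tested.

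Ligands and receptors of the vascular growth factors were split between both cell types. For VEGF, the receptor Kdr was higher in members in every library, by 2.57 (1.38 to 2.91), and the coreceptor Nrp1 by 1.40. The decoy receptor Flt1 was lower in every library (-0.36), as was the ligand Vegfa (-1.76), and the ligand Vegfc had a median of -2.02. Of 9 measured genes of this group, 2 were higher and 3 lower in every library. For endothelin, the ligand Edn1 (-2.35) and the converting enzyme Ece1 (-0.48) were lower in every library, while the receptor Ednrb was the gene of the rule. For apelin, members held the ligand Apln and less of the receptor Aplnr. For BMP signalling, 1 of 16 genes was higher and 5 were lower in every library, with the receptor Acvrl1 at 0.31, Bmpr2 at -0.28 and the ligand Bmp6 at -1.51. The BMP target Id1 differed by -0.04. For Notch, 4 of 13 were lower, among them the receptor Notch4 (-0.76) and the target Hey1 (-1.87), and Mfng, a glycosyltransferase that modifies Notch, was higher (1.05).

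Genes of barrier, transport and vessel tone had a few members on each side, to be read beside the 7.87% of all measured genes that were higher and the 6.05% that were lower in every library. Of 15 junction genes, 1 was higher and 2 were lower, near those shares. Of 17 caveolar and transport genes, 4 were higher and 3 lower, with the caveolar coat proteins Cav1 at -0.36 and Cavin1 at -0.45, the water channel Aqp1 at -0.41 and the membrane-binding annexin Anxa3 at 0.78. Of 17 vasoactive and clotting genes, 3 were higher, among them the thrombin receptor F2r (1.61). Angiotensin-converting enzyme Ace was lower in every library (-0.40), and thrombomodulin Thbd differed by 0.02. Among 22 transcription factors, Tbx2, Tbx3, Meox1 (2.72) and Hlx (1.11) were higher and 5 were lower in every library, among them Sox17 (-1.50), Foxp1 (-1.02) and Epas1 (-0.48).

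Antigen presentation set members apart from general capillary cells. All 7 measured MHC class II genes were lower in every library, with a median of -1.67, and the invariant chain Cd74 stood at 658 ± 237 CPM in members and 2013 ± 869 in general capillary cells. Over all measured genes, 7.87% were higher and 6.05% lower in every library. Of 16 MHC class I genes, 6 were lower and none was higher in every library. Of 29 interferon-stimulated genes, 2 were higher, near the share of all genes, and 6 lower. Of 16 leukocyte adhesion genes, 5 were higher, among them Cd47 (1.07), and 2 lower. That list shares Cd34 and Icam2 with the aerocyte programme and Cxcl12 with the general capillary markers, so its counts are not independent of those lists. B cells held 9468 CPM of Cd74, and the part of free RNA in the members' level was not tested.

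Lists of p53 targets and senescence genes had medians of 0.25 and 0.13, close to that of all genes. Of 20 p53 targets, 3 were higher in every library (7.87% of all measured genes were) and none was lower. The 3 were Gdf15, a stress cytokine (84.0 ± 46.1 against 5.24 ± 3.64 CPM), Phlda3, an inhibitor of AKT (355 ± 86.9 against 78.0 ± 14.0), and the nuclease Aen (31.6 ± 10.7 against 14.6 ± 4.06). The p53 target Mdm2 differed by 0.02 in the median. Of 19 senescence genes, 5 were higher in every library, among them Igfbp7 and the cell-cycle inhibitor Cdkn2b (87.1 ± 43.1 against 4.09 ± 1.81 CPM). Both are also on the aerocyte programme list, so they are no separate sign of senescence. The neighbour of Cdkn2b, Cdkn2a, which encodes p16, gave 17 UMIs in WT, then 3, 3 and 0 in p21Het, 2, 10, 14, 10 and 18 in p21mTert, with 0 and 0 in p21mTertCD. As a level, that was 44.7 CPM in WT, then 0 to 6.26 in p21Het, 7.39 to 42.6 in p21mTert and 0 in both p21mTertCD libraries, against 0 to 1.37 in general capillary cells. The counts of 0 allow up to 12.5 CPM in p21mTertCD_1, 6.03 in p21mTertCD_2 and 14.5 in p21Het_3 (3 counts of each total). The lowest p21mTert value, 7.39 CPM, rests on 2 UMIs in p21mTert_1, where 3 counts make 11.1 CPM. With so few UMIs these limits cannot order the p21mTertCD libraries against p21mTert_1. No test of Cdkn2a between groups is given.

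No difference in the share of aerocytes between the replicated groups exceeded the spread of libraries. Of all cells, members made up 1.39% in WT (Clopper-Pearson 95% interval 1.10% to 1.74%, counting error only), then 1.66%, 1.87% and 0.494% in p21Het, 0.997%, 2.29%, 2.31%, 2.32% and 1.48% in p21mTert, with 0.610% and 1.38% in p21mTertCD. The p21Het_3 and p21mTertCD_1 libraries were lowest. Of endothelial cells, members made up 18.4% in WT (14.7% to 22.4%), then 16.8%, 12.9% and 9.39% in p21Het, 12.6%, 16.6%, 16.5%, 14.6% and 14.9% in p21mTert, with 10.6% and 14.8% in p21mTertCD. Of capillary cells, the members and the general capillary cells together, they made up 27.8% in WT, then 28.1%, 25.1% and 15.2% in p21Het, 21.6%, 29.5%, 28.3%, 25.3% and 25.6% in p21mTert, with 21.5% and 25.0% in p21mTertCD. WT was thus highest of all libraries among endothelial cells and within the range of the others by the other measures, and with 1 library it has no test.

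By group, the share of endothelial cells was 13% ± 3.70 (SD, n = 3) in p21Het, 15% ± 1.66 (n = 5) in p21mTert and 12.7% ± 3.01 (n = 2) in p21mTertCD. The share was 2.00 percentage points higher in p21mTert than in p21Het (2-sided exact permutation test, p = 0.339) and 2.33 points higher than in p21mTertCD (exact permutation p = 0.190). Among all cells the same differences were 0.540 and 0.886 points, and among capillary cells 3.27 and 2.82 points. Across the 9 tests of shares the lowest adjusted p was 0.536, every pair of groups overlapped, and the contrasts share their p21mTert and p21Het libraries. The smallest p that the exact test allows is 0.0476 with 5 and 2 libraries and 0.1 with 2 and 3, so that p21mTertCD and p21Het could not reach 0.05. The difference from p21Het rested on p21Het_3: without that library it was 0.118 points among all cells, 0.185 among endothelial cells and -0.539 among capillary cells. Without p21Het_1 it was 0.699, 3.88 and 5.94 points. In the later deposit alone it was 0.920, 4.49 and 7.06 points, where endothelial and capillary shares did not overlap between 4 and 2 libraries, at an exact permutation p of 0.0667 (adjusted 0.2) for each, the smallest that size allows. The difference from p21mTertCD rested on p21mTertCD_1: without that library it was 0.503 points among all cells, 0.202 among endothelial cells and 1.07 among capillary cells. Without p21mTertCD_2 it was 1.27, 4.46 and 4.57 points. Dissociation and cell loading set such shares too, and their part was not tested.

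**Figure D3:**
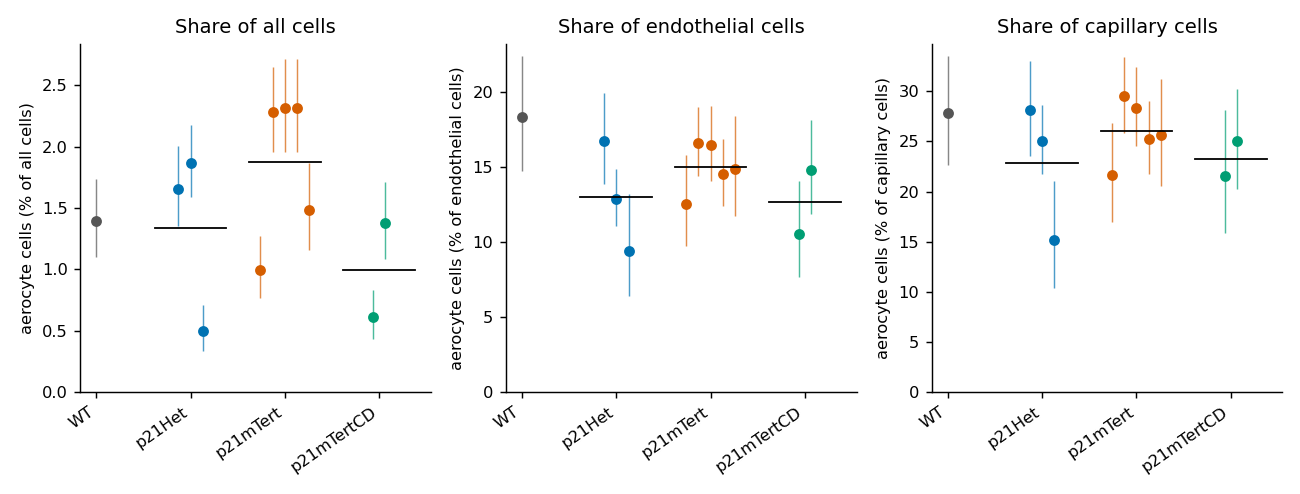
Aerocyte cells as a share of all cells, of endothelial cells and of capillary cells (percent) in each library, by group, with 95% Clopper-Pearson intervals and group means as horizontal lines. The groups overlap in each panel, and p21Het_3 is lowest among endothelial cells at 9.39%.

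Cdkn1a, which drives the mTert alleles, was transcribed in most members. It was detected in 82.9% of members, 71.9% of general capillary cells and 6.72% of B cells, and after thinning to 1000 UMIs in 46.8%, 37.7% and 1.56%. Its level in members was 910 CPM in WT, then 573, 967 and 907 in p21Het, 428, 867, 750, 761 and 670 in p21mTert, with 764 and 589 in p21mTertCD. General capillary cells averaged 504 ± 167 CPM and members 744 ± 167, and members were higher in 10 of 11 libraries, by a median of 0.42. The earlier libraries of p21Het and p21mTert were the lowest of their groups. Against p21Het, the log2 difference was -0.23 in p21mTert (exact permutation p = 0.429, adjusted 0.643 over 6 tests) and -0.25 in p21mTertCD (p = 0.6, exact permutation), and p21mTert minus p21mTertCD was 0.01 (exact permutation p = 1.0). Leaving out 1 library at a time moved the first from -0.07 (without p21mTert_1) to -0.47 (without p21Het_1) and the second from -0.06 (without p21mTertCD_2) to -0.48 (without p21Het_1). In GRCm38 Cdkn1a lies on chromosome 17, 29090976 to 29100727, plus strand.

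Tert was rare in every group. Tert encodes the reverse transcriptase subunit of telomerase, and its 3′ counts do not tell the p21 locus transcript from the native gene. Members gave 0 Tert UMIs in WT, then 2, 0 and 2 in p21Het, 1, 12, 9, 7 and 3 in p21mTert, with 3 and 7 in p21mTertCD. The WT count of 0 allows up to 7.89 CPM (3 counts of its total). As levels, p21Het held 4.17, 0 and 9.65 CPM, p21mTert 3.69, 12.4, 10.5, 7.60 and 7.10, and p21mTertCD 12.5 and 14.1. The p21mTertCD values lay above the highest p21mTert library by less than the counting error of so few UMIs, and p21mTert and p21Het overlapped. On log2 of CPM plus 1, p21mTert exceeded p21Het by 1.20 (exact permutation p = 0.196) and differed from p21mTertCD by -0.71 (exact permutation p = 0.143), and p21mTertCD exceeded p21Het by 1.91 (exact permutation p = 0.2), with adjusted p = 0.4 for each. These sizes depend on the pseudocount: p21mTert minus p21Het was 0.56 with 5 CPM and 0.21 with 20 CPM, and p21mTertCD minus p21Het was 1.06 and 0.45. Without p21Het_2, which held no Tert UMI, they were 0.23 and 0.94 with 1 CPM, and without p21Het_3 they were 1.94 and 2.65. Tert was detected in 4.17% of members, 2.28% of general capillary cells and 0.767% of B cells (1.02%, 0.611% and 0.129% after thinning). General capillary cells held 0.479 to 1.12 CPM in p21Het, 4.23 to 13.1 in p21mTert and 4.32 and 7.05 in p21mTertCD. Tert lies on chromosome 13, 73626911 to 73649843, plus strand.

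**Figure D4:**
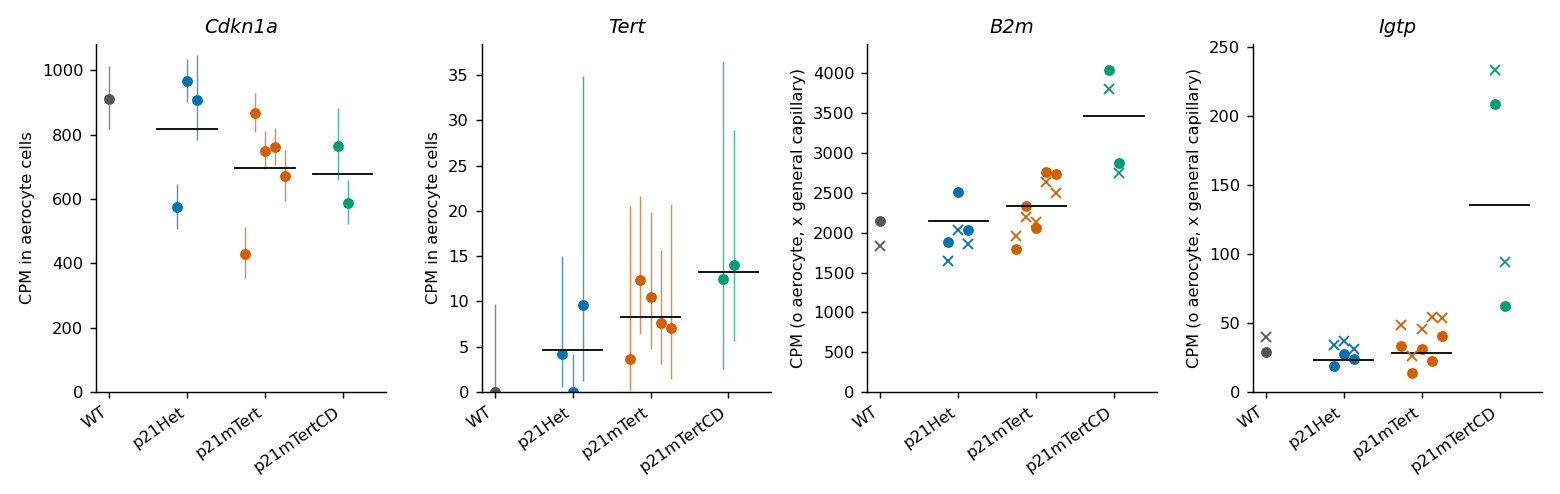
Cdkn1a and Tert in aerocyte cells (CPM, with 95% Poisson intervals for counting error) and B2m and Igtp in aerocyte cells (circles) and general capillary cells (crosses), by library and group. B2m and Igtp are highest in p21mTertCD_1 in both cell types, at 4046 and 209 CPM in aerocyte cells.

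No gene differed between p21mTert and p21Het members at an adjusted p under 0.05 (edgeR quasi-likelihood test, 0 of 7742 genes, 0.0%), and 370 had an unadjusted p under 0.05. DESeq2 called 1 gene, Myl9. Among genes higher in p21mTert, the smallest p was that of Edil3, a secreted integrin ligand made by endothelium. It stood at 125, 113 and 91.7 CPM in p21Het, 192, 211, 160, 235 and 187 in p21mTert, 166 in WT, and 138 and 165 in p21mTertCD. The p21Het and p21mTert libraries did not overlap, and the log2 difference was 0.82 ± 0.17 (SE, edgeR adjusted p = 0.558). Among members with 8 or more UMIs, Edil3 stood at 168, 182 and 178 CPM in p21Het and 237 to 286 in p21mTert, again without overlap, and general capillary cells held 2.75 to 33.1. Gpx3, a secreted glutathione peroxidase, stood at 70.9, 51.7 and 24.1 CPM in p21Het and 79.3 to 262 in p21mTert (1.53 ± 0.36), also without overlap. Lpin2, a phosphatidate phosphatase, stood at 48.3 to 64.6 and 82.7 to 113 CPM. Marveld1 ran the other way, at 67.8 to 125 CPM in p21Het and 33.2 to 42.4 in p21mTert (-1.18 ± 0.24), and is a gene that general capillary cells held at 158 to 256 CPM. Among members with 8 or more UMIs Marveld1 stood at 31.2 to 73.2 and 0 to 32.4 CPM, with overlap. The other genes with the smallest p among those lower in p21mTert were Spp1, Ctss, Gm20186 and Cyp1a1. Spp1, a secreted phosphoprotein made by macrophages among other cells, stood at 18.8, 206 and 9.65 CPM in p21Het and 1.03 to 10.5 in p21mTert (-4.30 ± 0.86), with the smallest p of all genes. Ctss, a cathepsin of antigen-presenting cells, stood at 31.3, 77.0 and 4.83 CPM and 3.10 to 10.5 (-2.74 ± 0.57). The p21Het_2 library was thus highest for both and p21Het_3 lay within the range of p21mTert. Gm20186 stood at 14.6, 33.3 and 24.1 CPM in p21Het and 3.50 to 7.23 in p21mTert, without overlap (-2.14 ± 0.47). Cyp1a1, an enzyme induced through the aryl hydrocarbon receptor, stood at 2.09, 47.1 and 347 CPM in p21Het and 0 to 3.69 in p21mTert (-6.25 ± 1.39), with overlap, and its difference was -4.40 without p21Het_3. Over all genes tested, 1.55% were higher and 1.49% lower without overlap of these groups.

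Genes of the aerocyte programme leaned higher in p21mTert than in p21Het members and general capillary markers leaned lower, and both leans were smaller or turned without p21Het_3 and the cells near the threshold. All 23 tested programme genes had a log2 difference above 0, with a median of 0.36 against 0.00 over all genes, and 6 had an unadjusted p under 0.05 (2.01% of all genes were higher by that limit). Kdr stood at 2439, 1247 and 893 CPM in p21Het and 2512, 1966, 1678, 2733 and 2289 in p21mTert (0.56 ± 0.24). Emp2 stood at 4141, 2762 and 1786 CPM in p21Het and 4388, 3655, 3221, 4484 and 4263 in p21mTert (0.47 ± 0.21). Both genes overlapped between the groups through p21Het_1, which lay within the range of p21mTert, while p21Het_3 was lowest. Fibin did not overlap (0.71 ± 0.35, edgeR adjusted p = 0.982), and Apln differed by 0.61 ± 0.29 with overlap. All 14 tested general capillary markers had a difference below 0, with a median of -0.61, and 5 had an unadjusted p under 0.05 (2.76% of all genes were lower by that limit). Venous markers leaned lower too, in 8 of 9 (median -0.86, 3 by that limit), as did lymphatic markers in 7 of 7 (median -0.43, 1). Arterial markers were below 0 in 6 of 10 (median -0.29, 0 by that limit). The part of such cells in the lean was not tested. Plvap stood at 211, 344 and 922 CPM in p21Het and 177, 144, 211, 177 and 277 in p21mTert (-1.27 ± 0.36, edgeR adjusted p = 0.722). Without p21Het_3, the difference was 0.29 for Fibin and -0.56 for Plvap. The Plvap difference was -0.10 with 5 or more UMIs and turned to 1.13 with 8 or more. Both of these fits also lacked p21Het_3, so they are to be set beside the -0.56. With cells holding UMIs of other lineages left out, which keeps 1 p21Het library, p21Het_1, Kdr stood at -0.16 and Emp2 at -0.13 in the same contrast. As p21Het_1 already lay within the range of p21mTert for both genes, leaving out cells and losing libraries cannot be told apart here. The programme leaned alike in p21mTert minus p21mTertCD, with 22 of 23 genes above 0, a median of 0.37 and 1 unadjusted p under 0.05. Of these genes 9 were higher in p21mTert without overlap, against 6.97% of all genes. General capillary markers were below 0 there in 11 of 14, with a median of -0.33.

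The p21Het_3 library had under 20 members with 5 or more UMIs (18 cells) or 8 or more (13 cells) and was left out of those fits. Among members with 8 or more UMIs, 17 of 23 programme genes were above 0 with a median of 0.14, 10 of 13 general capillary markers were above 0 with a median of 0.10, and no gene of either list had an unadjusted p under 0.05. With 5 or more UMIs the medians were 0.08 and 0.27. Without p21Het_3 the medians were 0.16 and -0.24 among all members, without p21Het_1 they were 0.55 and -0.86, and in the later deposit alone 0.54 and -0.84. The summed level of the programme was 27095 CPM in WT, then 25523, 18214 and 12428 in p21Het, 26519, 23846, 20452, 28294 and 26850 in p21mTert, with 17084 and 20407 in p21mTertCD, and general capillary cells held 4545 to 5985. Among members with 8 or more UMIs it was 34046, 25437 and 20208 in p21Het and 28766 to 38357 in p21mTert, with overlap.

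**Figure D5:**
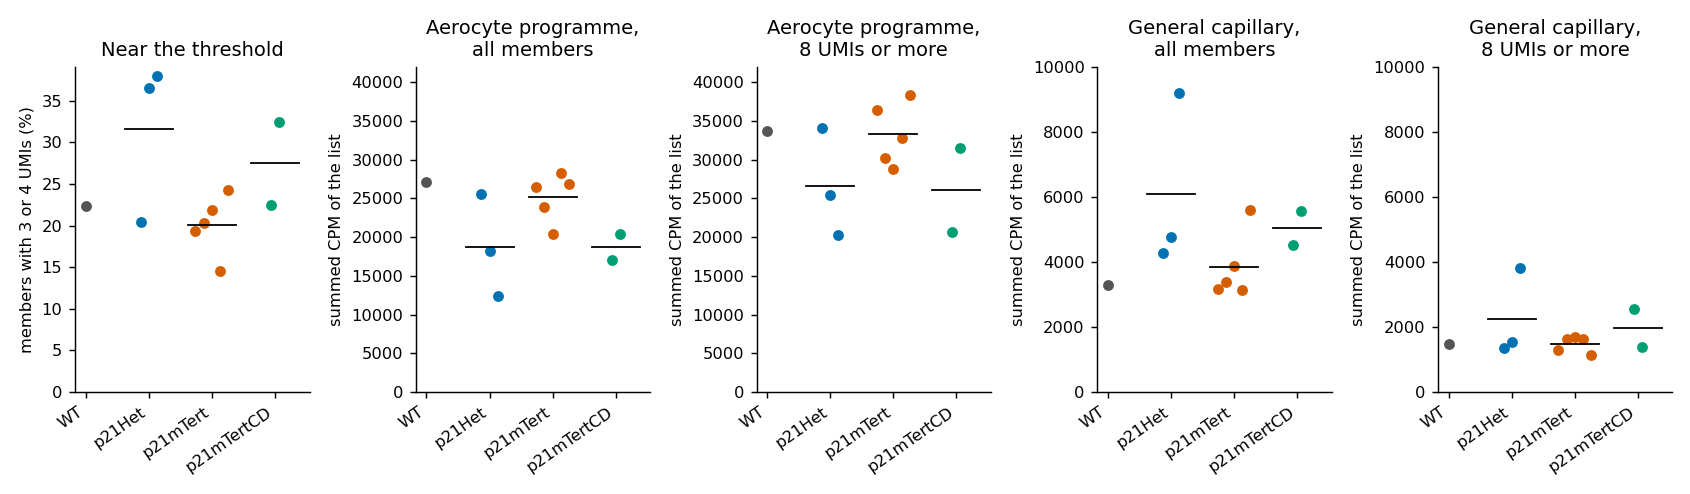
Share of members with 3 or 4 Car4 and Ednrb UMIs (percent), and summed CPM of the aerocyte programme and of general capillary markers in all members and in members with 8 or more UMIs, by library and group. p21Het_3 has the lowest programme sum among all members, 12428 CPM, and the highest sum of general capillary markers, 9199 CPM.

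Markers of other cell types moved with some of these genes. MHC class II genes leaned lower in p21mTert than in p21Het (6 of 7 below 0, median -0.73, 5 with an unadjusted p under 0.05). Cd74 stood at 563, 914 and 917 CPM in p21Het and 558, 296, 569, 538 and 485 in p21mTert, with overlap. Leukocyte markers moved with them. Of macrophage markers, 6 of 6 tested were below 0 (median -1.24, 3 with an unadjusted p under 0.05), and their summed level was 222 to 4391 CPM in p21Het and 180 to 2560 in p21mTert members. Of lymphocyte markers, 3 of 3 were below 0 (median -1.99, all 3 with an unadjusted p under 0.05), with sums of 828 to 3313 and 423 to 1105 CPM. The 3 were Ighm, Igkc and Cd74. Cd74 is also on the MHC class II list and is part of these sums, so the lists are not independent. With marked doublets left out, 1 of the MHC class II genes had an unadjusted p under 0.05. The median was -0.48 without p21Het_2 and -1.21 among members with 8 or more UMIs. Summed erythroid markers were 2264, 4501 and 2732 CPM in p21Het members and 180 to 2385 in p21mTert members. Summed smooth muscle and pericyte markers were 12.5 to 29 CPM in p21Het members and 16.6 to 1569 in p21mTert members, with 1336 and 862 in p21mTertCD. Myl9, a myosin light chain of smooth muscle, stood at 0, 3.45 and 9.65 CPM in p21Het, 36.9, 140, 56, 65.2 and 16.6 in p21mTert, with 163 and 76.3 in p21mTertCD. Among members with 8 or more UMIs and without p21Het_3, edgeR called 23 of 6102 genes (0.377%), all lower in p21mTert. Among them were the immunoglobulin receptor Pigr (-4.82 ± 0.71), the iron-siderophore binder Lcn2 (-4.68 ± 0.55), Sftpd (-3.77 ± 0.51), the lipopolysaccharide coreceptor Cd14 (-3.82 ± 0.57), the immunoglobulin joining chain Jchain (-3.81 ± 0.73) and the haemoglobin gene Hbb-bt (-2.56 ± 0.44). Sftpd, a surfactant protein, stood there at 960 and 480 CPM in p21Het_1 and p21Het_2 and 11 to 130 in p21mTert, while p21Het_3, which that fit left out, held 10.5. With 8 or more UMIs, summed markers of alveolar type 2 epithelium were 26487 and 10231 CPM in p21Het_1 and p21Het_2 and 492 in p21Het_3. In p21mTert they were 835 to 7774 CPM there, with 922 in p21mTert_1. Among all members they ranged from 521 to 21337 CPM over the libraries, with WT_1, p21Het_1 and p21mTert_1 highest. No marker list of another cell type was at 0 in all libraries, and the part of such RNA in the differences was not tested.

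Interferon-stimulated and MHC class I genes leaned higher in p21mTertCD members than in both other groups, most of all in p21mTertCD_1, and no single gene was called. edgeR called 0 of 7742 genes in either contrast (0.0%), with 520 genes at an unadjusted p under 0.05 for p21mTert minus p21mTertCD and 397 for p21mTertCD minus p21Het. DESeq2 called 0 and 2 genes, the latter Ccl5 and Myl9, and edgeR among members with 8 or more UMIs called 2 and 0 (0.0328% and 0.0%), the former Postn, a matrix protein, and Stc1, a secreted glycoprotein, both lower in p21mTert. Both contrasts share the p21mTertCD libraries. Of 28 tested interferon-stimulated genes, 26 were lower in p21mTert than in p21mTertCD with a median of -0.86, and 13 had an unadjusted p under 0.05 (4.11% of all genes were lower and 2.61% higher by that limit). Against p21Het, 24 of 28 were higher in p21mTertCD with a median of 0.86, and 12 had an unadjusted p under 0.05 (2.89% of all genes were higher and 2.23% lower by that limit). Of 16 MHC class I genes, all were higher in p21mTertCD in both contrasts, with medians of -0.61 for p21mTert minus p21mTertCD and 0.47 for p21mTertCD minus p21Het, and 9 and 8 of them had an unadjusted p under 0.05. Markers of other cell types differed as well between p21mTertCD and p21Het. Of all genes tested, 8.5% were higher and 9.31% lower in p21mTertCD without overlap of these groups. All 3 tested mural markers were higher in p21mTertCD, without overlap (median 7.07), and 9 of 9 alveolar type 2 markers were lower (median -3.47, 6 with an unadjusted p under 0.05). All 4 erythroid markers were lower, without overlap, and 7 of 7 lymphatic markers were higher (median 0.66, 1 with an unadjusted p under 0.05). In p21mTert minus p21mTertCD, 9 of 9 alveolar type 2 markers were above 0 (median 3.10, 3 with an unadjusted p under 0.05) and 7 of 7 lymphatic markers below 0 (median -1.29, 6 with an unadjusted p under 0.05, 5 without overlap). Of all genes tested, 5.61% were lower in p21mTert than in p21mTertCD without overlap. In that contrast 7 of 7 MHC class II genes were also below 0 (median -1.03, 5 with an unadjusted p under 0.05, 6 without overlap), as were 7 of 9 venous markers (median -1.69, 2 with an unadjusted p under 0.05) and 8 of 10 arterial markers (median -0.50, 2 with an unadjusted p under 0.05). Arterial markers summed to 3636 CPM in p21mTertCD_1 and 1131 in p21mTertCD_2, against at most 1554 in the other libraries. Venous markers summed to 1975 and 817 CPM in p21mTertCD, 245 to 739 in p21mTert, and 384, 482 and 3489 in p21Het. Their part in the p21mTertCD differences was not tested.

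Igtp, an interferon-inducible GTPase, stood at 209 and 62.3 CPM in p21mTertCD, 33.2, 13.4, 31.5, 22.8 and 40.2 in p21mTert, 18.8, 27.6 and 24.1 in p21Het, and 28.9 in WT. The p21mTertCD libraries did not overlap the other groups (-2.33 ± 0.45 and 2.45 ± 0.53, edgeR adjusted p = 0.232 and 0.564), a pattern shown by 5.61% of genes lower in p21mTert than in p21mTertCD and 8.5% of genes higher in p21mTertCD than in p21Het. Gbp4, another such GTPase, stood at 263 CPM in p21mTertCD_1 and 52.2 in p21mTertCD_2, the latter within the range of the other libraries. B2m, the shared light chain of MHC class I, stood at 4046 and 2874 CPM in p21mTertCD and 1791 to 2763 elsewhere. These genes were thus higher in p21mTertCD_1 than in p21mTertCD_2. The p21mTertCD_1 library was highest of 10 libraries for 19 of 28 interferon-stimulated and 14 of 16 MHC class I genes. Without it the medians were -0.38 and 0.27 for interferon-stimulated genes and -0.13 and 0.16 for MHC class I genes. Without p21mTertCD_2 they were -1.48 and 1.43, and -0.87 and 0.79. With 8 or more UMIs, p21mTertCD_1 was highest for 14 of 28 and 10 of 16 genes, and the medians there, without p21Het_3, were -0.79 and 0.62 for interferon-stimulated genes and -0.52 and 0.29 for MHC class I genes. General capillary cells shared the pattern, with Igtp at 233 and 94.3 CPM in p21mTertCD against 25.8 to 54 in the other libraries, and p21mTertCD_1 highest for 20 of 28 and 15 of 16 genes.

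Ccl5, a chemokine of T and natural killer cells, stood at 1420 CPM in p21mTertCD_1, 18.1 in p21mTertCD_2 and at most 29.5 elsewhere, and at 30.9 in p21mTertCD_1 among members with 8 or more UMIs. Nhp2, a protein of the telomerase ribonucleoprotein, stood at 8.35 and 24.1 CPM in p21mTertCD and 46.5 to 56.8 in p21mTert, without overlap, which 6.97% of genes showed in that direction. Tmem41b, a lipid scramblase of the endoplasmic reticulum, stood at 12.5 and 14.1 CPM in p21mTertCD, 34.1 to 40.6 in p21mTert and 27.6 to 43.8 in p21Het (1.49 ± 0.31 for p21mTert minus p21mTertCD, edgeR adjusted p = 0.277), and 9.31% of genes were lower in p21mTertCD than in p21Het without overlap. These genes were named for their small p, and edgeR called none of them over all libraries. Without p21mTertCD_2, which leaves p21mTertCD_1 alone in its group, the Ccl5 difference was -6.61 for p21mTert minus p21mTertCD and 7.51 for p21mTertCD minus p21Het. Such a fit takes the spread of the lone library from the other groups. Cdk6, a kinase of the cell cycle, stood at 71.0 and 76.3 CPM in p21mTertCD and 14.6 to 38.6 in the other groups. Sned1, a matrix protein, stood at 50.1 and 68.3 CPM in p21mTertCD and 10.9 to 21 in p21mTert. Lymphatic markers summed to 2488 and 2866 CPM in p21mTertCD, 707 to 1762 in p21mTert and 909 to 2973 in p21Het, and their part in these differences was not tested.

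Genotype differences of aerocytes were compared with those of general capillary cells in the same libraries by an interaction test in edgeR over 9989 genes. It called 1 gene for p21mTert minus p21Het (0.01%), 1 for p21mTert minus p21mTertCD (0.01%) and 0 for p21mTertCD minus p21Het (0.0%), so the genotype difference was seen to depend on capillary type for 2 genes. Neither is known as an endothelial gene. Myh11, the smooth muscle myosin, differed by 6.31 ± 0.72 (edgeR adjusted p = 0.00189), with 6.26, 5.75 and 0 CPM in p21Het members, 33.2, 156, 38.5, 108 and 4.73 in p21mTert members, and 56.3 CPM in p21Het_1 general capillary cells against 0 to 5.43 in those of the other p21Het and all p21mTert libraries. Without p21Het_1 its adjusted p was 0.215, and with doublets left out 0.810. Scgb3a2, a secretory protein of airway cells, differed by 3.25 ± 0.44 (edgeR adjusted p = 0.0151) through 412 CPM in p21mTertCD_2 general capillary cells, and without that library the difference was 0.61 (adjusted p = 0.964). Ifi208, an interferon-inducible gene, came next at 2.37 ± 0.41 (adjusted p = 0.111). It stood at 70.9, 41.4 and 91.7 CPM in p21Het members and 59.1, 25.8, 31.5, 25.0 and 52.1 in p21mTert members, and at 28.1 to 62.4 and 1.05 to 12.2 CPM in general capillary cells of those groups. Its difference was called with 2 or more UMIs (2.28, edgeR adjusted p = 0.0248), with 5 or more (2.78, adjusted p = 0.0197), without p21Het_3 (2.70, adjusted p = 0.0186) and with no filter on low counts. It was not called with doublets left out (adjusted p = 0.0547), with DESeq2 size factors, in the later deposit or without any other single library, where the adjusted p reached 0.474. With 8 or more UMIs it was 2.92 (edgeR adjusted p = 0.00466), as 1 of 7 called genes among 9329 (0.075%). For p21mTert minus p21mTertCD, that gate gave 1 such gene, Stc1 (0.0107%).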

How the data were processed

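Per the labels' protocols, the authors mapped reads to mm10 with Cell Ranger and deposited raw UMI counts per gene and barcode, and the sources used here disagree on its version. The cell filter used the limits the labels give. Members and gene lists were chosen with earlier results of these data known. Groups came from the labels. Doublets were kept: the caller of Scrublet (scanpy 1.11.5) marked 0.0305% to 3.59% of cells per library, and marking by a rate of 0.8% per 1000 barcodes (4.55% to 8.42%) served as an alternative. Counts were summed per library over members and tested with edgeR 4.0.16 (R 4.3.3; filterByExpr, TMM, glmQLFTest) in the 10 libraries of p21Het, p21mTert and p21mTertCD with at least 20 members, with Benjamini-Hochberg adjustment over all genes tested and calls at an adjusted p under 0.05. Car4, Ednrb, Cldn5 and Cdh5, which the rule used, stayed in the fit, and no test of theirs is given. The interaction model added general capillary cells with library as a block. Shares, Cdkn1a and Tert were tested by exact permutation over libraries with adjustment over 9 and 6 tests (Python 3.11.15, numpy 2.4.6, pandas 2.3.3, scipy 1.17.1, statsmodels 0.14.6, matplotlib 3.10.9). On simulated data for p21mTert minus p21Het (7742 genes), edgeR recovered 38.6%, 89.1% and 96.6% of changes of log2 1, 2 and 3, and 2.78% of its calls were false. The interaction test (9989 genes) recovered 21.5%, 68.9% and 75% of such changes, and 2.80% of its calls were false. Each gene was simulated on its own, without shifts of cell make-up or free RNA shared by a library. The rates therefore need not hold in these libraries. DESeq2 1.42.0, unfiltered counts, other gates, doublets left out and each library left out were alternatives. Intervals and floors cover counting error only.

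Named genes were Car4, Ednrb, Apln, Fibin, Cdkn1a and Tert. Added to these were called genes with non-overlapping libraries, the 5 genes with the smallest p in each direction where under 5 were called (mean at least 20 CPM), the 15 highest and 15 lowest against general capillary cells, and for each list up to 4 members of highest level, called members and members that did not overlap between p21mTert and p21Het. Some further list members named above (such as Vegfa, Hey1, Cdkn2b and Igtp) and genes called only with 8 or more UMIs were chosen after their values were seen. Promoters came from RefSeq (GRCm38.p6). Other alternatives were DESeq2 size factors, pseudocounts of 5 and 20 CPM, at least 10 members per library and the later deposit alone.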

Additional observations from a re-analysis of the deposited data

Results flagged for a closer look

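Of 44 groups of 5 p21mTert libraries checked for a library that stands apart, 3 were marked, and chance marks about 1 group in 20. Dennd1a stood at 36.9 CPM in p21mTert_1 and 16.5 to 21.3 in the other p21mTert libraries. Mrpl49 stood at 30.8 CPM in its highest p21mTert library and 18.5 to 21.7 in the others. Tmem41b stood at 34.1 CPM in p21mTert_2 and 39.6 to 40.6 in the others.

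The p21mTert minus p21Het difference of Myh11 differed between aerocyte and general capillary cells by 6.31 on the log2 scale, by the interaction test in edgeR. The p21mTert minus p21mTertCD difference of Scgb3a2 differed between these cell types by 3.25 by the same test.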

How the results depend on the processing

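Depth limits these results: the members of a library gave 207196 UMIs at the least, so that genes at a few UMIs, Tert and Cdkn2a among them, carry a wide counting error. Of 899 values of 42 named genes and comparisons under alternatives, 847 kept their direction and side of the threshold, 38 newly passed it, 9 lost it and 5 reversed. Few of these comparisons were called at first, so most could keep their side of the threshold whatever their size. The 847 therefore do not show that sizes held, and that of Plvap shrank with 5 or more UMIs, in a fit without p21Het_3, while counted as kept. With cells holding UMIs of other lineages left out, only 1 p21Het library (p21Het_1) and 1 p21mTertCD library (p21mTertCD_2) kept at least 20 members. A lone library is then assumed to vary like the other groups, and leaving out cells cannot be told apart from losing libraries. In this fit p21mTert minus p21Het was -0.13 for Emp2, -0.16 for Kdr, 0.065 for Lpl and 0.43 for Cd93. With 8 or more UMIs it was 1.13 for Plvap, and the median of general capillary markers was 0.27 with 5 or more UMIs and 0.10 with 8 or more. The fits with these 2 gates lacked p21Het_3.

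The share among endothelial cells for p21mTert minus p21mTertCD was 2.89 points with 5 or more UMIs and 3.60 after thinning to 1000 UMIs, and that among capillary cells 3.45 after thinning, each at the smallest p the exact test allows, 0.0476, before adjustment. For p21mTertCD minus p21Het the share among endothelial cells was 0.236 points with 2 or more UMIs and 1.55 in the later deposit, and that among capillary cells -0.0397 after thinning and -0.155 with 8 or more UMIs. Cdkn1a for p21mTert minus p21mTertCD was -0.028, -0.12 and -0.10 with 2, 5 and 8 or more UMIs. Leaving out 1 library at a time, p21mTertCD minus p21Het ranged from -0.768 to 0.0367 points among all cells, -2.46 to 1.80 among endothelial cells and -3.36 to 3.12 among capillary cells, p21mTert minus p21Het from -0.539 to 5.94 among capillary cells, and Cdkn1a for p21mTert minus p21mTertCD from -0.17 to 0.20.

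Genes called for p21mTert against p21Het, for p21mTert against p21mTertCD and for p21mTertCD against p21Het numbered 121, 156 and 156 with no filter on low counts, where 16716 genes were tested. They numbered 23, 2 and 0 with 8 or more UMIs, 1, 0 and 2 with DESeq2, and 6 for the last contrast when only its 2 groups were fitted. Leaving out 1 library gave 0 to 10 calls for p21mTert minus p21mTertCD and 0 to 14 for p21mTertCD minus p21Het, the highest without p21mTertCD_2, which leaves p21mTertCD with 1 library. In the interaction test the same contrasts gave 108, 108 and 117 calls with no filter, 6, 0 and 3 with 2 or more UMIs, 2 and 2 for the first contrasts with 5 or more UMIs, and 7 for the first with 8 or more. They gave 0 for the first and 1 for the last with doublets left out, and 4 and 1 in the later deposit. Leaving out 1 library gave 1 to 4, 0 to 1 and 0 to 3 interaction calls. The cause of these shifts was not tested.

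With replicate number as a block, 1, 0 and 0 genes were called, the first Slc6a2. Replicate numbers showed no clear pairing: over 7 pairs with the same number the correlation of deviations ran from -0.041 to 0.301, and 2 of 8 libraries correlated best with their own number. The value of 0.301 joined p21Het_1 and p21mTert_1, both of the earlier deposit. Deviations of the 2 p21mTertCD libraries from their own mean mirror each other, so this check cannot exclude pairing.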
